A study of Homo sapiens with 18 samples.

Results

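The endoplasmic reticulum (ER) contains a small family of J-domain proteins that direct the HSP70 chaperone BiP to its tasks. This report describes the transcripts of 7 of them, DNAJB9, DNAJB11, DNAJC1, DNAJC3, DNAJC10, DNAJC16 and SEC63, which were chosen by name as ER-resident members of the family. Each has 1 row among the 25435 rows of the deposited gene count table, and all 7 had enough counts to be tested in every comparison. A J domain carries a conserved histidine-proline-aspartate motif that stimulates ATP hydrolysis by HSP70, so that the chaperone closes on its client. The lumenal members DNAJB9, DNAJB11, DNAJC3 and DNAJC10 bring BiP to folding or misfolded proteins. The membrane members DNAJC1 and SEC63 place their J domain at the inner face of the ER membrane near the ribosome and the SEC61 channel. DNAJB9 is a known target of the transcription factor XBP1, and several other members belong to the unfolded protein response.

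RNA-Seq was done on HEK293doxERN2 cells, a human embryonic kidney line with a FLAG-tagged human ERN2 transgene under control of doxycycline. ERN2, also called IRE1β, is an ER stress sensor of mucosal epithelia with an RNA-cutting domain. Its relative ERN1 is present in most cells. Cells received 0, 10 or 100 ng/mL doxycycline over 24 hours, and at each dose 3 libraries came from cells given DMSO vehicle and 3 from cells given 200 nM thapsigargin over 3 hours. Thapsigargin blocks the calcium pump of the ER and causes ER stress. All 6 groups and 18 libraries are of the same transgenic line, and no cells without the transgene were analysed here, so effects of doxycycline and of ERN2 cannot be told apart. Whether the line is a single clone is not given in the sources used here. The labels number the libraries of a group without saying that they came from separate cultures, so p-values measure the spread between these libraries, which may be technical.

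Library totals ran from 14876416 to 24652240 counts on genes. The ERN2 transcript averaged 7.79, 35.2 and 270 CPM (a gene's count scaled to a common library size) in vehicle-treated cells at 0, 10 and 100 ng/mL and 12.2, 65.8 and 207 CPM in thapsigargin-treated cells, in the order the labels give. The extraction text in the labels speaks of colon crypt epithelial cells. All 5 HEK293 markers checked were detected in every library, with a summed level of 1480 to 2549 CPM, while 7 of 8 colon crypt markers stayed under 10 counts in every library and the 8 together summed to 3.61 to 9.57 CPM. In HEK293 markers the call passed for NEFM, which fell at 100 ng/mL in vehicle cells, and for LIN28B, which fell with thapsigargin without doxycycline (log2 -0.75) and under thapsigargin was higher at 100 than at 0 ng/mL (1.22, SE 0.21, adjusted p = 0.00124), the comparison in which DNAJB11, DNAJC1 and DNAJC3 were lower. Their part in the results was not tested. Replicates differed by more than sampling noise in every pair, with a chi-square statistic of 6.99 to 60.2 per degree of freedom, so none was treated as a duplicate. In bulk RNA, fewer cells with a transcript and less of it per cell cannot be told apart.

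Of the 7 members, 3 rose with thapsigargin and 4 passed the test at none of the doses. In cells without doxycycline, 3 of the 7 rose (DNAJB9, DNAJB11 and DNAJC3), where 6.45% of the 14397 genes tested rose at an edgeR adjusted p under 0.01. At 10 ng/mL, 2 of 7 rose (DNAJB9 and DNAJB11) against 1.16% of genes. Doxycycline in vehicle-treated cells raised DNAJB9 alone at 10 ng/mL, 1 of 7 members against 0.138% of genes. The higher dose of 100 ng/mL raised 1 member (DNAJB9, against 0.838% of genes) and lowered 2 (DNAJC1 and SEC63, against 7.49%). Among thapsigargin-treated cells, 3 members were lower at 100 ng/mL than without doxycycline (DNAJB11, DNAJC1 and DNAJC3), against 9% of genes. DNAJC10 and DNAJC16 did not pass the test in any of the 10 comparisons. These comparisons share groups with each other, so the counts are not independent.

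**Figure D1:**
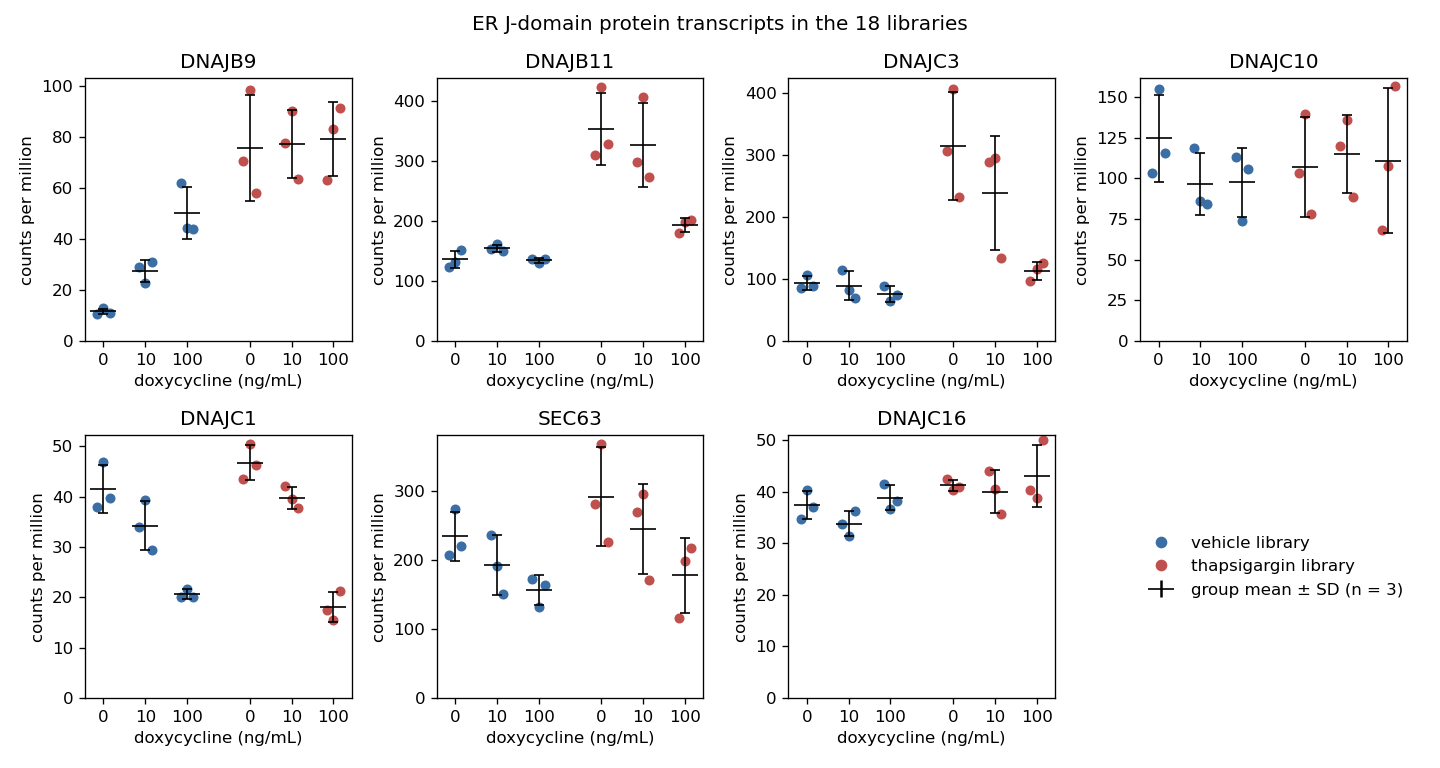
Level of each member in the 18 libraries, in CPM on a linear axis from 0. Dots are libraries (blue for vehicle, red for thapsigargin, by doxycycline dose), and bars give the group mean and SD of 3 libraries. DNAJB9 climbed with dose in vehicle and was high in all thapsigargin groups, DNAJB11 and DNAJC3 were high with thapsigargin at 0 and 10 ng/mL and lower at 100 ng/mL, and DNAJC1 was lowest in both 100 ng/mL groups.

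Per length of annotated exons, the members covered a wide range of levels in untreated cells. On the scale of CPM per kilobase of exon, SEC63 stood at 27.2 ± 4.09 (SD, n = 3) and DNAJB11 at 23.7 ± 2.45. DNAJC3 and DNAJC1 were near each other at 16.7 ± 1.98 and 16.6 ± 1.91 CPM per kilobase. DNAJC10, DNAJC16 and DNAJB9 were lowest, at 5.71 ± 1.23, 4.37 ± 0.321 and 4.10 ± 0.403. With thapsigargin and no doxycycline the order was DNAJB11 at 61.5 ± 10.6, DNAJC3 at 56.2 ± 15.6, SEC63 at 33.9 ± 8.33, DNAJB9 at 26.7 ± 7.32 and DNAJC1 at 18.7 ± 1.38 CPM per kilobase, followed by DNAJC10 and DNAJC16 at 4.90 ± 1.41 and 4.81 ± 0.129. On this scale DNAJB9 was thus level with DNAJC16, within their spread, in untreated cells and above it with thapsigargin. Per kilobase of the longest transcript DNAJB9 was lower than DNAJC16 in untreated cells, 4.28 beside 5.94. These levels depend on the exon length taken, and the union of exons of DNAJC10 spans 21835 bases, most of it outside the coding sequence of 2379 bases.

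DNAJB9 (ERdj4, chr7:108569568-108574850, plus strand of GRCh38 by GENCODE 29) binds unfolded proteins in the ER lumen and is known to hold ERN1 in its inactive state with BiP. XBP1 recognises DNA with an ACGT core, and the letters CCACGT were therefore searched on both strands in the 250 bases before the RefSeq start of each gene. They occurred in 8.37% of 35116 such windows, in 4 of the 6 members with a window, and 2 times in that of DNAJB9. The matches are shown because DNAJB9 and DNAJC3 are among the members that rose with thapsigargin, with CCACGT in capitals, 12 flanking bases on each side and sequence from RefSeq on GRCh38.p14.
DNAJB9, chr7:108569788-108569817, plus strand: aacaacagttttCCACGTgcgcgtagggcg
DNAJB9, chr7:108569814-108569843, minus strand: gcttctgcctccCCACGTgatcccggcgcc
DNAJC3, chr13:95676947-95676976, plus strand: cgtctcgtgcttCCACGTtatcctatcagg
DNAJC10, chr2:182716120-182716149, plus strand: ccgcgcacaccgCCACGTcaacctaaacct
SEC63, chr6:107958263-107958292, minus strand: ccgttgcgctcgCCACGTctcccttagcga

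Counted on the strand of the gene, the first letters of these matches lie 74 and 48 bases before the RefSeq start of DNAJB9. For DNAJC3, DNAJC10 and SEC63 they lie 180, 125 and 72 bases before the RefSeq start. The GENCODE spans given with the gene names can begin elsewhere. Those of DNAJB9 and DNAJC10 begin before these matches, which thus lie inside the spans, while the matches of DNAJC3 and SEC63 lie outside theirs. In DNAJC10 the match overlaps TGACGTG on the other strand, a longer XBP1 element found in 1.68% of all windows and in no other member. DNAJB11, which rose with thapsigargin, and DNAJC16 held no CCACGT in these windows. The windows of DNAJB9 and DNAJB11 lie wholly inside their GENCODE spans, and the bases before those spans were not searched. The ER stress response elements ERSE and ERSE-II, which occurred in 0.074% and 0.0513% of all windows, were in none of the 6. The motif is thus found both in members that rose with thapsigargin and in members that did not, and a match describes letters, not binding.

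DNAJB9 was present at 10.8, 12.9 and 11.2 CPM in the 3 vehicle libraries without doxycycline, at 29.1, 22.6 and 31.0 CPM at 10 ng/mL and at 61.9, 44.6 and 44.1 CPM at 100 ng/mL. No library of a dose overlapped one of the dose below. It averaged 11.6 ± 1.14, 27.6 ± 4.39 and 50.2 ± 10.2 CPM (SD, n = 3). Against no doxycycline it rose 2.37-fold at 10 ng/mL (log2 fold change 1.24, SE 0.16, edgeR adjusted p = 0.00527) and 4.19-fold at 100 ng/mL (2.07, SE 0.16, adjusted p = 2.39e-06). The step from 10 to 100 ng/mL, 1.79-fold (0.84, 95% confidence interval 0.45 to 1.23), had an adjusted p of 0.0192 and did not pass. When single libraries were dropped, the call at 10 ng/mL was kept in 2 of 6 fits and was lost when any of the vehicle libraries without doxycycline or the 10 ng/mL library 2 was left out (adjusted p between 0.0119 and 0.05).

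With thapsigargin DNAJB9 stood at 70.6, 98.7 and 58.2 CPM without doxycycline, at 77.8, 90.3 and 63.7 CPM at 10 ng/mL and at 63.1, 83.2 and 91.4 CPM at 100 ng/mL. These 3 groups overlapped each other throughout, with means of 75.8 ± 20.8, 77.2 ± 13.3 and 79.2 ± 14.6 CPM. Between 100 ng/mL and no doxycycline the log2 difference under thapsigargin was 0.05, with a 95% confidence interval of -0.40 to 0.51. The response to thapsigargin was 6.57-fold without doxycycline (log2 2.72, SE 0.19, adjusted p = 8.87e-07) and 2.79-fold at 10 ng/mL (1.48, SE 0.17, adjusted p = 0.00115), a call lost without 10 ng/mL library 2 of vehicle (adjusted p = 0.0153) or thapsigargin (0.0107). It was 1.60-fold at 100 ng/mL (0.68, 95% confidence interval 0.26 to 1.10, adjusted p = 0.074), and the lowest thapsigargin library was only 1.02 times the highest vehicle library. DNAJB9 was thus graded by dose in vehicle cells, with overlapping groups under thapsigargin.

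The difference between the response at 100 ng/mL and that without doxycycline was -1.96 on the log2 scale for DNAJB9 (SE 0.30, 95% confidence interval -2.59 to -1.32), with an edgeR adjusted p of 0.0101, just short of the threshold of 0.01. The same difference for HSPA5, which encodes BiP, passed at -1.58 (adjusted p = 0.00897), as did that for XBP1 at -2.14 (adjusted p = 1.20e-06). DNAJB9 passed in 7 of 18 alternatives, among them DESeq2 (adjusted p = 2.24e-08), all 6 groups in 1 fit (0.00143) and the thapsigargin library 1 at 100 ng/mL left out (0.00138). Of the 12 edgeR fits with 1 library left out, only 2 passed (adjusted p up to 0.0453). With the replicate number as a block it did not pass (0.0409). At 10 ng/mL the difference was -1.23 (95% confidence interval -1.80 to -0.65), at an adjusted p of 0.779. ERN1, the sensor that DNAJB9 is known to bind, rose with thapsigargin without doxycycline (log2 1.06, SE 0.15, adjusted p = 0.000451) and was 1.48 lower on the log2 scale at 100 ng/mL than at 0 ng/mL under thapsigargin (SE 0.20, adjusted p = 0.000205).

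DNAJB11 (ERdj3, chr3:186567403-186585800, plus strand) is a soluble, abundant partner of BiP that binds unfolded proteins and is also secreted. In vehicle cells it ran at 124, 132 and 151 CPM without doxycycline, 153, 161 and 149 CPM at 10 ng/mL, and 137, 129 and 136 CPM at 100 ng/mL. With thapsigargin the libraries gave 309, 422 and 327 CPM without doxycycline, 298, 406 and 274 CPM at 10 ng/mL, and 180, 197 and 202 CPM at 100 ng/mL. The thapsigargin libraries at 100 ng/mL lay apart, above every vehicle library and below every other thapsigargin library.

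In contrast to DNAJB9, DNAJB11 did not differ detectably with doxycycline in vehicle cells. The log2 difference was 0.18 at 10 ng/mL (95% confidence interval -0.05 to 0.42) and -0.06 at 100 ng/mL (-0.29 to 0.17). Thapsigargin raised it 2.62-fold without doxycycline (log2 1.39, SE 0.13, adjusted p = 1.68e-05) and 2.10-fold at 10 ng/mL (1.07, SE 0.15, adjusted p = 0.00381). The latter call was lost without vehicle library 2 (adjusted p = 0.0416), vehicle library 3 (0.0129) or thapsigargin library 2 (0.0164). The ratio was 1.46 at 100 ng/mL (log2 0.55, 95% confidence interval 0.28 to 0.81, adjusted p = 0.0404). Under thapsigargin it fell by 0.87 on the log2 scale from 0 to 100 ng/mL (SE 0.15, adjusted p = 0.00137), a call that was lost at an adjusted p of 0.0103 without the thapsigargin library 2 at 100 ng/mL. The response differed by -0.76 between 100 ng/mL and no doxycycline (SE 0.18), which did not pass (adjusted p = 0.0603). In GENCODE 29 the gene overlaps AC068631.2 on the same strand over 3806 bases and TBCCD1 on the other strand over 3141, so part of its reads may be assigned otherwise.

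DNAJC3 (p58IPK, chr13:95677139-95794989, plus strand) is a lumenal cochaperone that binds misfolded proteins and is known to restrain the kinase PERK. It was at 85.4, 106 and 88.9 CPM in vehicle cells without doxycycline, 115, 82.5 and 70.1 CPM at 10 ng/mL, and 88.9, 64.0 and 74.4 CPM at 100 ng/mL. With thapsigargin it was at 306, 406 and 232 CPM without doxycycline, 288, 294 and 133 CPM at 10 ng/mL, and 97.1, 116 and 126 CPM at 100 ng/mL. The 100 ng/mL thapsigargin libraries all lay below those of the lower doses, and only the lowest of them overlapped the vehicle libraries without doxycycline.

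The DNAJC3 response to thapsigargin was 3.39-fold without doxycycline (log2 1.76, SE 0.17, adjusted p = 2.14e-05). At 10 ng/mL it was 2.66-fold but varied (1.41, SE 0.28) and did not pass at an adjusted p of 0.0186, although the groups did not overlap. It was 1.52-fold at 100 ng/mL (0.60, 95% confidence interval 0.24 to 0.96, adjusted p = 0.0704). From 0 to 100 ng/mL DNAJC3 fell by 1.48 on the log2 scale under thapsigargin (SE 0.20, adjusted p = 0.000234), and by 0.35 in vehicle cells (95% confidence interval -0.64 to -0.05), which did not pass (adjusted p = 0.112). The response differed by -1.08 between 100 ng/mL and no doxycycline (SE 0.27, adjusted p = 0.0658). EIF2AK3, which encodes PERK, also rose with thapsigargin without doxycycline (log2 1.51, SE 0.13, adjusted p = 8.43e-06), and its difference from 0 to 100 ng/mL under thapsigargin was -0.62 (adjusted p = 0.0375).

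Library 3 at 10 ng/mL stood apart for DNAJC3 in the thapsigargin group, with 133 CPM beside 288 and 294. It was also the lowest of its group for every other member, among them SEC63 at 171 CPM beside 269 and 295. Its ERN2 was the highest of the group, 112 CPM beside 32.1 and 53.9. Library 3 of thapsigargin cells without doxycycline was likewise lowest for DNAJC3 (232 CPM), SEC63 (225 CPM), DNAJB9 and DNAJC10, but not for DNAJB11, DNAJC1 or DNAJC16. Its ERN2 was at 12.0 CPM beside 14.2 and 10.4. In the 10 ng/mL vehicle group library 3 again had the most ERN2 (55.9 CPM beside 22.5 and 27.1). It had the least DNAJC3, DNAJC1, SEC63, DNAJB11 and DNAJC10 of that group and the most DNAJB9 and DNAJC16. The part of ERN2 in these differences was not tested. Both 10 ng/mL libraries numbered 3 were then left out, a choice made after seeing the data. DNAJC3 rose with thapsigargin at 10 ng/mL in that fit (log2 1.56, SE 0.17, edgeR adjusted p = 5.16e-08). DESeq2 on all 6 libraries also called DNAJC3 there (1.41, adjusted p = 2.99e-05).

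**Figure D2:**
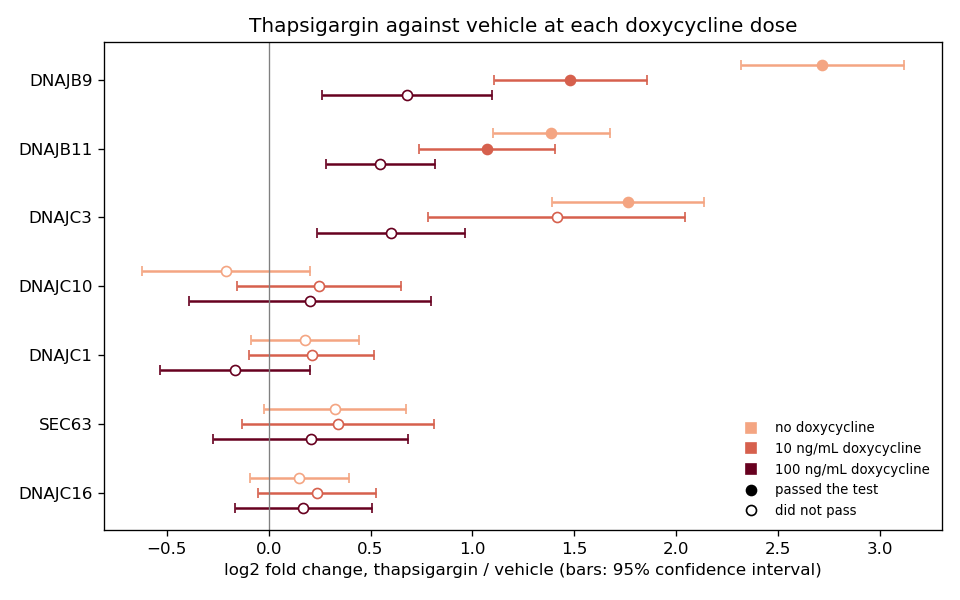
Log2 fold change of each member between thapsigargin and vehicle at each doxycycline dose, with 95% confidence intervals from edgeR (3 libraries per group). Filled symbols passed an adjusted p of 0.01. For DNAJB9, DNAJB11 and DNAJC3 the point estimate was smaller at each higher dose, from 2.72, 1.39 and 1.76 without doxycycline to 0.68, 0.55 and 0.60 at 100 ng/mL, and no other member passed at any dose.

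DNAJC10 (ERdj5, chr2:182716041-182794464, plus strand) joins a J domain to thioredoxin-like domains and reduces disulfide bonds of proteins bound for degradation. In vehicle cells it ran at 103, 155 and 116 CPM without doxycycline, 119, 86.3 and 84.3 CPM at 10 ng/mL, and 113, 73.5 and 106 CPM at 100 ng/mL. With thapsigargin it ran at 103, 139 and 78.3 CPM, at 120, 136 and 88.5 CPM and at 68.3, 108 and 157 CPM in the same order of doses. Every group overlapped its neighbour in the order of levels, and the 100 ng/mL thapsigargin libraries alone spanned from 68.3 to 157 CPM.

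No DNAJC10 difference passed, with thapsigargin responses of -0.21, 0.25 and 0.20 on the log2 scale at 0, 10 and 100 ng/mL. The confidence interval without doxycycline, -0.62 to 0.20, lies below the estimates of the 3 members that rose. In vehicle cells it was 0.37 lower at 10 ng/mL on the log2 scale (95% confidence interval -0.73 to -0.01, adjusted p = 0.154) and 0.40 lower at 100 ng/mL (-0.78 to -0.02, adjusted p = 0.15). Without vehicle library 1 at 10 ng/mL, the former passed at -0.55 (adjusted p = 0.0077).

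DNAJC1 (ERdj1, chr10:21756537-22003769, minus strand) is a membrane protein with a lumenal J domain that reaches the ribosome through its cytosolic part. In vehicle cells it was at 38.0, 47.0 and 39.7 CPM without doxycycline, 34.0, 39.3 and 29.5 CPM at 10 ng/mL and 20.0, 21.7 and 20.0 CPM at 100 ng/mL. With thapsigargin it was at 43.5, 50.4 and 46.2 CPM, then 42.1, 39.6 and 37.7 CPM, then 17.4, 15.5 and 21.3 CPM. The 6 libraries at 100 ng/mL lay between 15.5 and 21.7 CPM and the other 12 at or above 29.5 CPM, with vehicle and thapsigargin libraries side by side in each range.

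Doxycycline at 100 ng/mL lowered DNAJC1 in both settings. It fell by 1.05 on the log2 scale in vehicle cells (0.482 times the level without doxycycline, SE 0.13, adjusted p = 0.000103) and by 1.37 under thapsigargin (0.386 times, SE 0.17, adjusted p = 9.98e-05). Both calls held in each of the 12 alternatives run for each comparison. At 10 ng/mL the differences were -0.28 in vehicle (95% confidence interval -0.59 to 0.02) and -0.24 under thapsigargin (-0.50 to 0.02), neither of which passed. From 10 to 100 ng/mL it was 0.76 lower on the log2 scale (SE 0.14) at an adjusted p of 0.0114, which passed with DESeq2 (9.16e-05). Thapsigargin itself did not change it detectably, with log2 differences of 0.18, 0.21 and -0.17 at 0, 10 and 100 ng/mL and a 95% confidence interval of -0.09 to 0.44 without doxycycline. The thapsigargin difference at 100 ng/mL minus that without doxycycline was -0.26 (-0.67 to 0.15).

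SEC63 (ERdj2, chr6:107867756-107958189, minus strand) sits beside the SEC61 channel and recruits BiP to proteins entering the ER. In vehicle cells it was at 207, 274 and 220 CPM without doxycycline, 236, 191 and 150 CPM at 10 ng/mL and 173, 131 and 163 CPM at 100 ng/mL. With thapsigargin it was at 280, 367 and 225 CPM, then 269, 295 and 171 CPM, then 116, 199 and 217 CPM. The 100 ng/mL groups did not overlap those without doxycycline, in vehicle or under thapsigargin.

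SEC63 fell by 0.63 on the log2 scale at 100 ng/mL in vehicle cells (0.646 times, SE 0.13, adjusted p = 0.00591). The call was kept in 6 of 12 alternatives. It was lost without the vehicle library 2 or 3 of the cells given no doxycycline or the vehicle library 3 at 100 ng/mL (adjusted p up to 0.0259), with library totals alone (0.0108), with all 6 groups in 1 fit (0.101) and with the replicate number as a block (0.0425). Under thapsigargin the difference was -0.72 (95% confidence interval -1.23 to -0.21, adjusted p = 0.0454). The thapsigargin response was 0.33, 0.34 and 0.21 at 0, 10 and 100 ng/mL and passed at none.

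DNAJC16 (chr1:15526813-15592379, plus strand) is a membrane J-domain protein of the ER that has been less studied. Its 18 libraries lay between 31.5 and 50.0 CPM, the narrowest span of group means among the members at 0.34 on the log2 scale. At 100 ng/mL in vehicle cells the log2 difference was 0.01 (95% confidence interval -0.24 to 0.27), and thapsigargin without doxycycline gave 0.15 (-0.09 to 0.39). The gene overlaps AGMAT on the other strand over 12758 bases, and whether the counting used strand is not given in the sources used here.

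**Figure D3:**
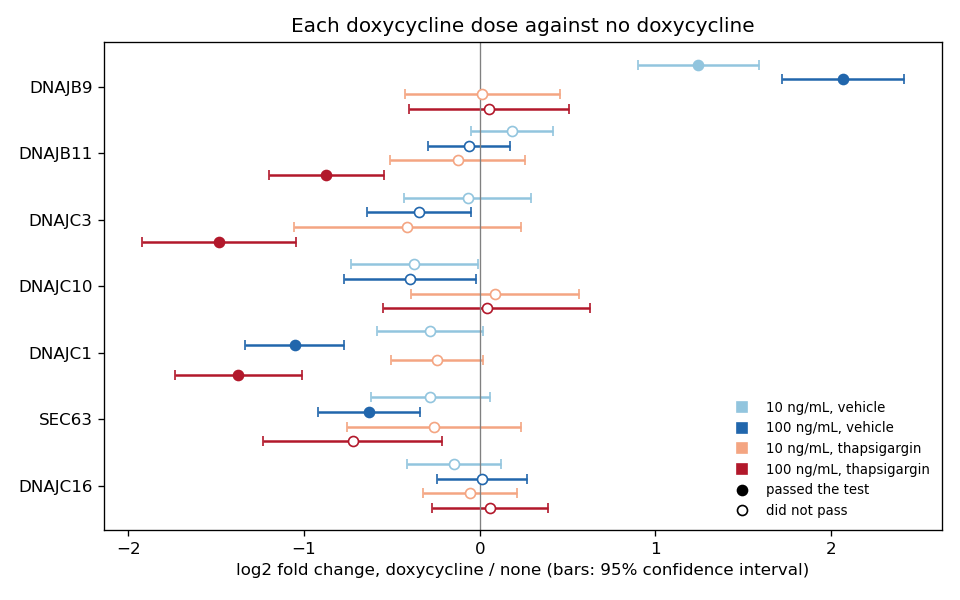
Log2 fold change of each member at 10 and 100 ng/mL doxycycline against no doxycycline, in vehicle (blue) and thapsigargin (red) cells, with 95% confidence intervals from edgeR (3 libraries per group). Filled symbols passed an adjusted p of 0.01. DNAJB9 was called higher in vehicle cells at both doses, DNAJC1 lower at 100 ng/mL in both settings, SEC63 lower in vehicle cells and DNAJB11 and DNAJC3 lower under thapsigargin.

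Some comparisons had no member past the threshold. From 10 to 100 ng/mL in vehicle cells edgeR called 0 of 7 (2.45% of all genes were called), with 3 at an unadjusted p under 0.05 (16.1% of genes) and 2 by DESeq2 (5.51%). For thapsigargin at 100 ng/mL it called 0 of 7 (0.201% of genes), with 3 at an unadjusted p under 0.05 (27% of genes). DESeq2 called 1 there (5.07%). Without the thapsigargin library 1 the edgeR adjusted p was 0.00246 for DNAJB9, 0.00412 for DNAJB11 and 0.0045 for DNAJC3. With every library kept, the groups did not overlap for 3 of 7 members (DNAJB9, DNAJB11 and DNAJC3) against 25.8% of genes. For the difference of responses at 100 ng/mL edgeR called 0 of 7 (0.0406% of genes), with 3 at an unadjusted p under 0.05 (24.7% of genes) and 3 by DESeq2 (2.31%). For that at 10 ng/mL it called 0 of 7 (0% of genes), with 1 at an unadjusted p under 0.05 (4.47% of genes, 664 of 14857) and 0 by DESeq2 (0.0202%, 3 genes).

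Between 10 and 0 ng/mL under thapsigargin edgeR likewise called 0 of 7 members (0% of genes), with 0 at an unadjusted p under 0.05 (4.22% of genes, 612 of 14509) and 0 by DESeq2 (0.269%, 39 genes). In this comparison libraries of the same number deviated together, and with the replicate number as a block 2 members were called lower, DNAJC3 (log2 -0.46, SE 0.08, adjusted p = 0.000987) and SEC63 (-0.27, SE 0.06, adjusted p = 0.00632). The block called 564 genes in all.

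ERN2 cuts RNA, and the letters CTGCAG are the core of the sequence at which IRE1 enzymes are known to cut. They were searched on the sense strand of 1 GENCODE 29 transcript per gene. In the coding sequence they occurred 2 times in DNAJC1, 3 times each in SEC63 and DNAJC3, once each in DNAJB9 and DNAJB11 and not in DNAJC10 or DNAJC16. Of 19652 genes, 67.7% held at least 1 in their coding sequence. The stretches of the members that fell in vehicle cells at 100 ng/mL are shown, with CTGCAG in capitals and its first base counted from the start codon. GRCh38 positions are those of the outer bases, which enclose an intron for the first of DNAJC1 and the last of SEC63.
DNAJC1, coding base 233, chr10:21929114-22003214, minus strand: aggatgcatcatCTGCAGacatcagaaaag
DNAJC1, coding base 1475, chr10:21759274-21759303, minus strand: agagagctcggtCTGCAGaggagccgtgga
SEC63, coding base 1153, chr6:107902883-107902912, minus strand: aagtctccccttCTGCAGctccctcatatt
SEC63, coding base 1472, chr6:107893849-107893878, minus strand: agtccatctgtgCTGCAGaggaacagccag
SEC63, coding base 1679, chr6:107883125-107893489, minus strand: ttgggaatgaagCTGCAGtaaaggaagatg

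The members without the letters in their coding sequence, DNAJC10 and DNAJC16, were also those that passed in no comparison, but DNAJC10 held 5 and DNAJC16 held 1 elsewhere in the transcript. DNAJB9 holds 1 in its coding sequence and rose at 100 ng/mL. The letters are thus present in members of each direction, and whether any site is cut was not measured.

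**Figure D4:**
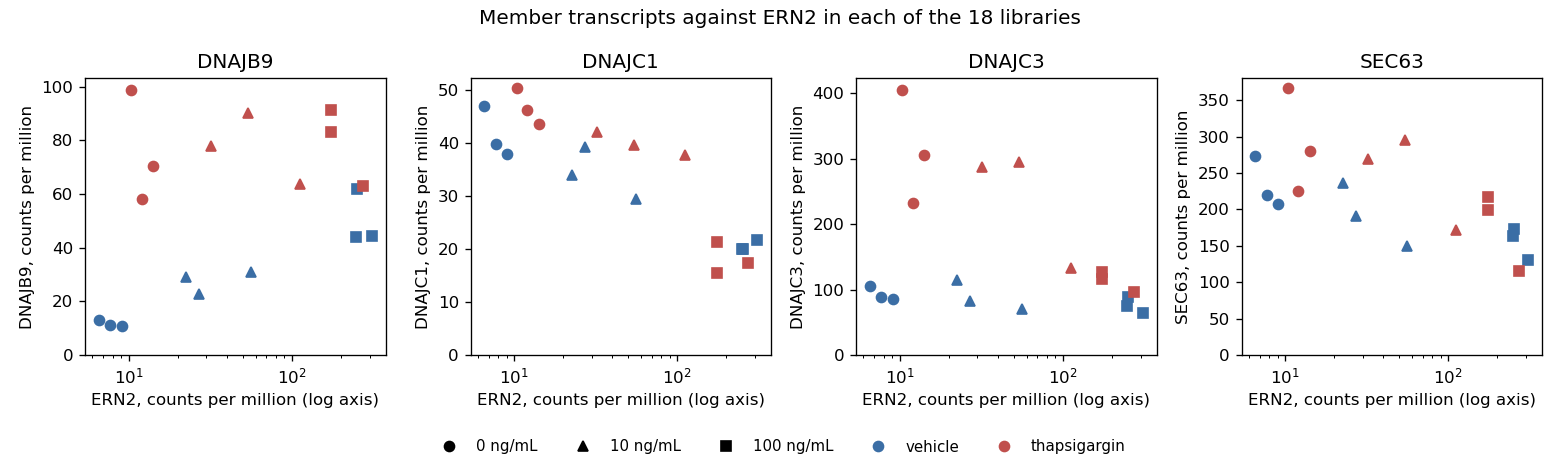
Level of DNAJB9, DNAJC1, DNAJC3 and SEC63 against that of ERN2 in each of the 18 libraries, in CPM (ERN2 on a log axis, members on a linear axis from 0). Colour gives vehicle or thapsigargin and shape gives the doxycycline dose. The DNAJC1 libraries at 100 ng/mL lie between 15.5 and 21.7 CPM. The 10 ng/mL thapsigargin library with the most ERN2 (112 CPM) has 133 CPM of DNAJC3 and is the lowest of its group for each member shown.

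The members were set beside the other DNAJ genes, which encode J-domain proteins of the cytosol, nucleus, mitochondria and membranes. Of 37 with a row, 32 were tested, among them 5 known or predicted in the ER membrane. In vehicle cells at 100 ng/mL edgeR called 0 of the 32, where 0.838% of all genes were called higher and 7.49% lower. Their median log2 difference was 0.02, beside -0.01 over all genes. Thapsigargin without doxycycline raised 2 of the 32, against 6.45% of all genes, DNAJB5 (2.01, SE 0.14, adjusted p = 9.30e-07) and DNAJC6 (0.50). It lowered 3, against 4.74% of all genes, DNAJB1 (-0.85, SE 0.10, adjusted p = 0.000131), DNAJA1 (-0.70) and DNAJC8 (-0.43), the last named after its values were seen. DNAJB1 and DNAJA1 are cytosolic partners of HSP70. Under thapsigargin, 2 were higher at 100 ng/mL than without doxycycline, DNAJA1 (0.66) and DNAJC8 (0.80), where 1.53% of genes were called higher, and 3 of the 7 ER members were lower, against 9%. Whether the 2 sets differ was not tested. Of those 5 of the ER membrane (DNAJB12, DNAJB14, DNAJC14, DNAJC18 and DNAJC25), edgeR called 0 in each comparison. DNAJC25, also named after its values were seen, had a thapsigargin response of 0.58 on the log2 scale without doxycycline (adjusted p = 0.0233).

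**Figure D5:**
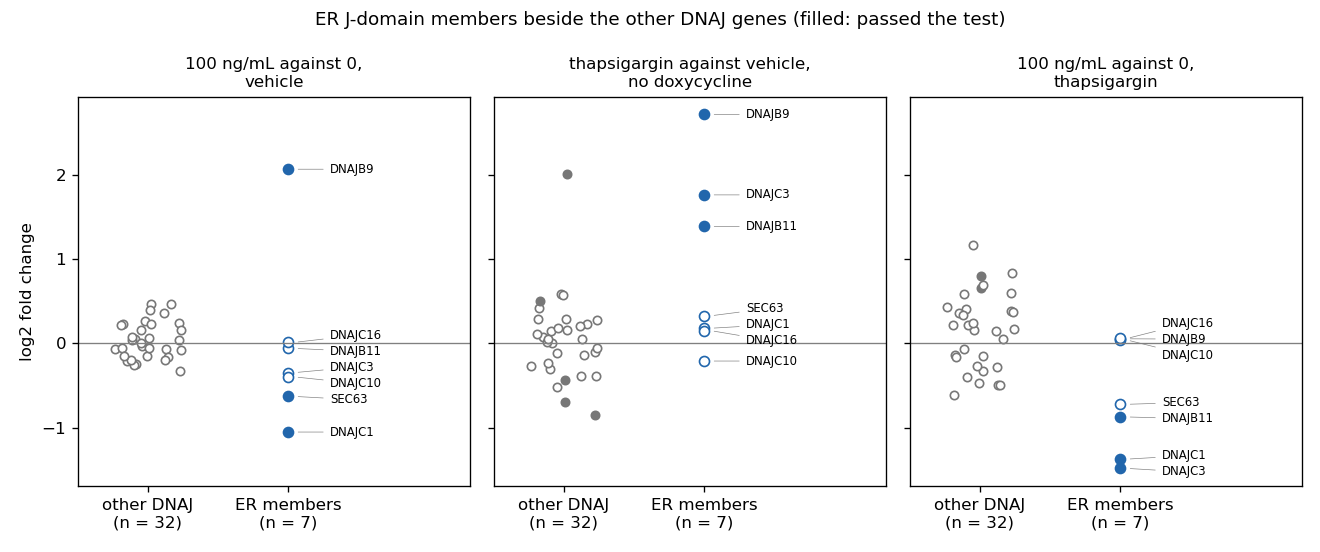
Log2 fold change of the 7 ER members (blue, named) and of 32 other DNAJ genes (grey) in 3 comparisons, from edgeR with 3 libraries per group. Filled symbols passed an adjusted p of 0.01, and sideways spread of the grey points has no meaning. At 100 ng/mL in vehicle cells 3 ER members and no other DNAJ gene passed, where 0.838% of all genes were called higher and 7.49% lower. Under thapsigargin 3 called ER members lay below 0 (against 9% of all genes) and 2 called other genes above it (against 1.53%). Whether the 2 sets differ was not tested.

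BiP and its other cofactors numbered 8. Thapsigargin without doxycycline raised 6 of them, against 6.45% of all genes. The median log2 difference of the 8 was 2.14, beside -0.01 over all genes. Among those raised were HSPA5 at 2.87 (SE 0.17, adjusted p = 2.33e-07), SDF2L1, a partner of DNAJB11, at 2.80, and FICD, which modifies BiP, at 2.71. Thapsigargin raised 5 of the 8 at 10 ng/mL, against 1.16% of all genes, and 3 at 100 ng/mL, where 0.201% were called in either direction. In vehicle cells 3 rose at 100 ng/mL (FICD at 1.85, MANF at 0.94 and HSPA5 at 0.84), against 0.838% of all genes. Under thapsigargin 4 were lower at 100 ng/mL than without doxycycline, against 9% of all genes. These were HYOU1 at -1.26, SIL1 at -1.21, SDF2L1 at -1.01 and HSPA5 at -0.80.

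SEC63 has 6 partners at the channel in the list used. In vehicle cells at 100 ng/mL, where SEC63 fell, 3 of these rose, against 0.838% of all genes, and 0 fell, against 7.49%. Those that rose were SEC61B at 0.97 (SE 0.12, adjusted p = 8.91e-05), SEC61A1 at 0.80 and SEC61G at 0.77 on the log2 scale. The median of the 6 was 0.23, beside -0.01 over all genes. With thapsigargin and no doxycycline 0 of these 6 were called, where 6.45% of all genes rose and 4.74% fell. Of 12 genes of ER-associated degradation, the process that DNAJB9 and DNAJC10 serve, thapsigargin raised 6 without doxycycline, against 6.45% of all genes. The median log2 difference of the 12 was 0.61, and the largest rises were HERPUD1 at 4.08, DERL3 at 2.65 and SEL1L at 1.88. In vehicle cells at 100 ng/mL 3 of the 12 rose, against 0.838% of all genes, among them DERL3 at 1.02. OS9 fell at -1.05 (adjusted p = 3.13e-05), where 7.49% of all genes fell. Of 10 oxidoreductases tested, enzymes that act on disulfide bonds as DNAJC10 does, 4 rose with thapsigargin without doxycycline, against 6.45% of all genes. PDIA4 at 2.06, TXNDC11 at 1.07 and PDIA6 at 0.80 were among them. Under thapsigargin 4 were lower at 100 ng/mL than at 0 ng/mL, against 9% of all genes. Among these were QSOX1 at -1.85, P4HB at -0.99 and PDIA4 at -0.93 on the log2 scale. In vehicle cells 2 rose at 100 ng/mL, against 0.838% of all genes, and 2 fell, against 7.49%. Those that fell were QSOX1 at -1.48 and TMX3 at -0.98, while DNAJC10 itself passed nowhere. In the cytosolic HSP70 system 4 of 8 fell with thapsigargin without doxycycline (median -0.54), where 4.74% of all genes fell, among them HSPA1B at -2.16, HSPA8 at -1.99 and HSPA1A at -1.88.

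In 4 members the group means spanned at least 1 unit of log2 CPM, and for these the genes with the most similar pattern were sought among 15018 genes. Similarity was the root mean square difference of log2 CPM over the 18 libraries, after each gene was centred on its mean. Nearest to DNAJB9 were FICD at 0.310, CCDC163P at 0.341 and MANF at 0.391. FICD averaged 4.89, 11.8 and 18.2 CPM in vehicle cells at 0, 10 and 100 ng/mL and 31.8, 35.3 and 24.7 CPM with thapsigargin. Nearest to DNAJB11 were HOXB9 (0.181), SLC7A1 (0.190) and KCTD15 (0.198), and nearest to DNAJC3 were SEL1L (0.273), SNCAIP (0.289) and SLC39A14 (0.293). Nearest to DNAJC1 were YIPF3 (0.142), ACP1 (0.143) and OS9 (0.148), of which OS9 fell at 100 ng/mL as given above. Among the members themselves the distance was 0.281 for DNAJC10 and SEC63, 0.308 for DNAJC10 and DNAJC16 and 0.337 for DNAJB11 and DNAJC3. The group means of DNAJC10 and DNAJC16 spanned only 0.37 and 0.34 on the log2 scale. The values share libraries and are given as a description.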

How the data were processed

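RNA-Seq libraries (KAPA stranded mRNA kit, 75-cycle single-end reads) were aligned by the authors with STAR in the VIPER pipeline to hg38, per the submitters' processing notes, and deposited as raw counts per gene symbol. The aligner version, annotation and strand setting are not given in the sources used here. Columns were matched to samples by the column number in the labels. The 28 symbols turned into dates were left as they are.

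Genes were kept by filterByExpr (minimum count 10), scaled with TMM factors and fitted in edgeR 4.0.16 under R 4.3.3 (quasi-likelihood test) to the libraries of each comparison, and p-values were adjusted over all genes by the Benjamini-Hochberg method (threshold 0.01). The SE is the log2 fold change over the square root of F. Responses were compared as interactions in 12 libraries. CPM were scaled over all 18 libraries, and similarity used log2(CPM + 0.1). Simulated counts were used to test the scripts. An exact permutation of 3 against 3 cannot go below p = 0.1. Replicate numbers paired the libraries only between 10 and 0 ng/mL under thapsigargin, where same-numbered deviations correlated at 0.344 to 0.467. Named genes were the 7 members, ERN2, XBP1, HSPA5, ERN1 and EIF2AK3, up to 3 called genes with the largest changes per list and comparison plus any in the opposite direction, and the 3 nearest genes. Members, lists and motifs were chosen with earlier results of these data known. CTGCAG and CCACGT positions used GENCODE 29 and RefSeq. Alternatives were DESeq2 1.42.0, RLE and total-count scaling, no filter, all 6 groups in 1 fit, the replicate block, a threshold of 0.05 and each library left out. Figures used matplotlib. The values of 1 gene of the degradation list are not reported here.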

Additional observations from a re-analysis of the deposited data

How the results depend on the processing

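With 3 libraries in a group, the spread between libraries set the precision more than the depth did. The calls of DNAJC1 at 100 ng/mL in both settings, of DNAJC3 at 100 ng/mL under thapsigargin and of DNAJB9, DNAJB11 and DNAJC3 with thapsigargin at 0 ng/mL held in each of the 12 alternatives run for them, as did that of DNAJB9 at 100 ng/mL in vehicle cells. Other counts of called members moved, and the cause was not tested. At 100 ng/mL in vehicle cells 3 were called, against 2 with library totals, all 6 groups and the block, where SEC63 was lost. With thapsigargin at 10 ng/mL 2 were called, against 3 with DESeq2, no filter, all 6 groups and a threshold of 0.05, where DNAJC3 was gained. Between 100 and 0 ng/mL under thapsigargin 3 were called, against 4 without the filter and at 0.05, where SEC63 was gained. At 10 ng/mL in vehicle cells 1 member was called, against 0 with all 6 groups in 1 fit. Between 100 and 10 ng/mL in vehicle cells 0 were called, against 2 with DESeq2, without the filter and at a threshold of 0.05, and 1 with all 6 groups. For thapsigargin at 100 ng/mL 0 were called, against 1 with DESeq2 and 1 at 0.05. For the difference of responses at 100 ng/mL 0 were called, against 3 with DESeq2 and 1 each with RLE factors, library totals, no filter, all 6 groups and a threshold of 0.05.

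With the replicate number as a block, 2 members were called between 100 and 10 ng/mL in vehicle cells, 4 with thapsigargin at 10 ng/mL (2 without the block) and 2 between 10 and 0 ng/mL under thapsigargin. SEC63 lost its call at 100 ng/mL in vehicle cells (adjusted p = 0.0425) and passed with thapsigargin at 0 ng/mL (0.00768), where 4 members were called in place of 3, and the block changed no other call that is not named here. Outside the comparison of 10 with 0 ng/mL under thapsigargin, where 6 of 6 libraries correlated best with their own number, 1 to 5 of 6 did and the numbers are not shown to pair the libraries.

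Dropping 1 library at a time, the number of called members ranged from 0 to 2 at 10 ng/mL in vehicle cells, 0 to 2 between 100 and 10 ng/mL, 0 to 3 with thapsigargin at 10 ng/mL, 0 to 3 at 100 ng/mL and 0 to 2 for the difference of responses at 100 ng/mL. With thapsigargin at 10 ng/mL it was 0 without library 2 of either group and 1 without vehicle library 3. For the difference it was 1 without thapsigargin library 3 at 0 ng/mL and 2 without thapsigargin library 1 at 100 ng/mL.

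Log2 differences that changed sign passed under no setting in which they did. The reversed values reached -0.28, for DNAJC10 between 100 and 0 ng/mL under thapsigargin without thapsigargin library 3 at 100 ng/mL. Between 100 and 10 ng/mL in vehicle cells DNAJC10 was 0.0091 with DESeq2, 0.0088 with RLE factors and 0.017 with library totals. Between 100 and 0 ng/mL under thapsigargin DNAJB9, DNAJC10 and DNAJC16 were -0.018, -0.039 and -0.014 with library totals and -0.0050, -0.018 and -0.0028 with all 6 groups. For the difference of responses at 100 ng/mL DNAJC16 was -0.078 with library totals and -0.014 with all 6 groups, and at 10 ng/mL SEC63 was -0.00042 with library totals and DNAJC1 -0.018 without both libraries numbered 3. With single libraries left out, DNAJC3 at 10 ng/mL in vehicle cells ran from -0.30 to 0.076. At 100 ng/mL in vehicle cells DNAJB11 ran from -0.12 to 0.021 and DNAJC16 from -0.037 to 0.067, and against 10 ng/mL DNAJC10 ran from -0.13 to 0.18. The thapsigargin response of DNAJC10 at 100 ng/mL ran from -0.13 to 0.43. Between 10 and 0 ng/mL under thapsigargin DNAJB9 ran from -0.14 to 0.25, DNAJB11 from -0.30 to 0.027, DNAJC10 from -0.089 to 0.33 and DNAJC16 from -0.13 to 0.031. Between 100 and 0 ng/mL under thapsigargin DNAJB9 ran from -0.12 to 0.30, DNAJC10 from -0.28 to 0.31 and DNAJC16 from -0.058 to 0.13. For the difference of responses at 10 ng/mL DNAJC1 ran from -0.057 to 0.14 and SEC63 from -0.13 to 0.23, and at 100 ng/mL DNAJC16 ran from -0.055 to 0.16 and SEC63 from -0.25 to 0.14.

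Counts over all genes moved more widely. At 10 ng/mL in vehicle cells 28 genes were called, against 3 with all 6 groups and 623 without the filter. At 100 ng/mL there were 1203, against 750 with the block, and between 100 and 10 ng/mL 356, against 1224 with the block. Thapsigargin at 0, 10 and 100 ng/mL gave 1611, 212 and 29, against 3571 and 3620 with the block and 941 with all 6 groups. Between 100 and 0 ng/mL under thapsigargin there were 1512, against 2641 with all 6 groups, and for the difference of responses 6, against 341 with DESeq2. With library totals the share of higher genes among those called with thapsigargin at 100 ng/mL was 54.9%, against 89.7% with TMM, and the median difference of responses at 100 ng/mL over all genes was -0.14, against 0.04.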
